A study of Mus musculus with 16 samples.

Results

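Hepatic stellate cells kept on plastic for 5 days in medium with 10% fetal bovine serum (culture, 3 arrays) were compared with freshly isolated cells plated for 24 h (quiescent, 5 arrays). These 8 arrays are all the arrays of both groups in a series of 16, chosen by their labels. The cells of both groups came from male Balb/c mice aged 8 to 10 weeks, were isolated by density centrifugation and then lost their F4/80-positive cells, F4/80 being a surface protein of macrophages, by magnetic sorting. The quiescent group came from normal mice, and the cultured cells are described only as isolated in the same way. As models, the quiescent cells had themselves spent 24 h on a dish, and the labels do not give their medium, so effects of time on plastic and of serum cannot be told apart. The other 8 arrays hold cells cultured in the same medium for 5 days sharing a transwell chamber with Kupffer cells (liver macrophages) (coculture, 2 arrays), cells from mice 15 days after bile duct ligation (3 arrays) and cells from mice injected 4 times with carbon tetrachloride (CCl4) at 0.5 µl per g (3 arrays). The cells of both injuries were plated for 24 h, like the quiescent ones. The values are log2 expression values, so a difference of 1 is a 2-fold difference. Values by array are listed in replicate order, 1 to 5 for quiescent and 1 to 3 for culture.

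Stellate cells lie between the hepatocytes and the sinusoidal endothelium and store retinoids as esters in lipid droplets. When the liver is injured, or when they are placed on a stiff surface with serum, they turn into myofibroblasts that contract, divide and lay down collagen, a change called activation. Culture on plastic is the usual laboratory model of that change, and the scar-forming cells of liver fibrosis derive largely from it in vivo.

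Between 6803 and 7037 of 18193 genes reached log2 5 on these 8 arrays. Pearson correlations across the 7823 tested genes were 0.944 to 0.982 between culture arrays, 0.929 to 0.978 between quiescent arrays and 0.773 to 0.896 between the groups. Quiescent replicate 4 and culture replicate 3 had the lowest median correlation with their own group (0.933 and 0.952), and some results are given with and without them. A result given without such a value may still depend on one of these arrays. The labels do not say whether replicates are separate animals, so p-values and SEs measure only a spread between arrays, which may be technical. That spread was estimated from all 16 arrays of the series, not from these 8 alone. Of 19 stellate markers on the array 16 passed the filter. By the test given below, 3 of these 16 were higher in culture, 6 lower and 7 not called. Des (8.54 and 8.42 in the quiescent and culture means), Pdgfrb (11.23 and 11.33) and Lhx2 (8.76 and 9.05) were high in both groups and not called. Lrat (5.61 and 9.75) was among the higher markers, and Rgs5 (10.59 and 8.35) and Vipr1 (5.41 and 3.17) were among the lower. Gfap and Ngfr stayed near background (1.81 and 3.22 in quiescent, 1.62 and 2.72 in culture).

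Of the 7823 tested genes, limma called 3291 (42.1%) at an adjusted p under 0.05, with 1450 higher (18.5%) and 1841 lower (23.5%) in culture. These shares are the background against which each count below is read. A change of at least 2-fold was called for 689 genes upward (8.81%) and 634 downward (8.1%), of at least 4-fold for 332 genes (4.24%), and of at least 16-fold for 34 upward (0.435%) and 7 downward (0.0895%). The arrays of the groups did not overlap for 3055 genes (39.1%). The median difference of all tested genes was -0.05. In RNA of whole cultures, fewer cells that carry a transcript and less of it per cell cannot be told apart.

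**Figure D1:**
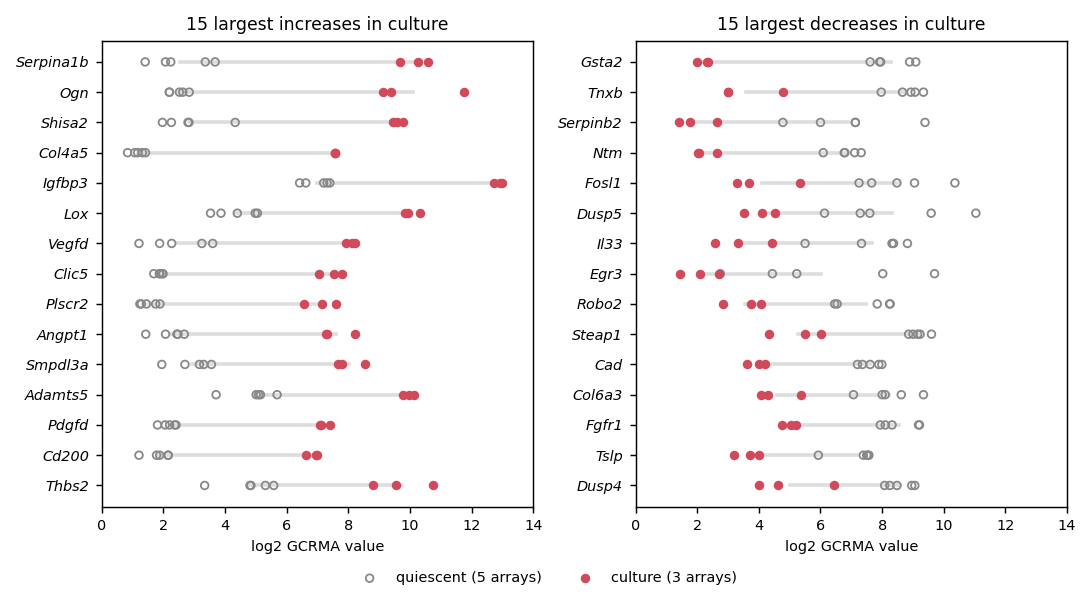
Log2 expression on the 5 quiescent arrays (open circles) and 3 culture arrays (filled circles) for the 15 genes with the largest increases (left) and decreases (right) among called genes with no overlap of arrays; grey lines join the group means. The increases start mostly near background, as for Ogn (2.19 to 2.84 in quiescent, 9.14 to 11.75 in culture), whereas the decreases start from clear expression, as for Gsta2 (7.61 to 9.09 and 2.01 to 2.34).

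The sharpest changes were genes that were near background in one group and clearly expressed in the other. Below log2 4 on every quiescent array and at 7 or more on every culture array were 10 genes, namely Serpina1b, Ogn, Col4a5, Vegfd, Clic5, Angpt1, Smpdl3a, Pdgfd, Lyz1 and Smoc2, and 1 gene, Gsta2, did the opposite. Angpt1, which encodes a ligand of the Tie2 receptor of endothelial cells, stood at 2.07, 2.47, 2.68, 1.43 and 2.44 on the quiescent arrays and at 7.31, 7.28 and 8.2 on the culture arrays, a log2 difference of 5.38 ± 0.33 (SE, adjusted p = 3.88e-08). Pdgfd, which encodes a ligand of PDGF receptor beta, stood at 1.81, 2.41, 2.2, 2.06 and 2.37 and at 7.11, 7.08 and 7.39, a difference of 5.03 ± 0.38. Both were near background on all 5 quiescent arrays, and the culture arrays lay close together. Shisa2 (6.76), Plscr2 (5.57), the disintegrin-like protease Adamts5 (5.03) and the membrane glycoprotein Cd200 (5.02) belonged to the 15 largest increases as well. Serpina1b and Lyz1 are read by probe sets designed without a unique match, so their gene within each family is uncertain. Serpina1b, normally a hepatocyte gene, was the one hepatocyte marker of 22 on the array to average log2 5 or more in culture, while Alb was at 2.46, Ttr at 1.94 and Apoa1 at 1.94 there.

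Matrix genes went both ways. All 6 tested small leucine-rich proteoglycans, which coat collagen fibrils and set their spacing, were higher in culture (median difference 2.90, against -0.05 for all tested genes), while 9 others of the 15 on the array stayed below the filter. Lum, which encodes lumican, stood at 9.51, 10.12, 9.59, 8.06 and 9.93 on the quiescent arrays and at 12.23, 12.34 and 12.61 on the culture arrays, a difference of 2.95 ± 0.45 (adjusted p = 0.000128). All 3 culture arrays lay above all quiescent arrays, of which replicate 4 was lowest. Prelp (2.85 ± 0.47), Fmod (3.38 ± 0.56, from near background) and Ogn (7.61) rose as well, and Bgn and Dcn rose by 0.53 and 0.58. The call of Bgn was lost without culture replicate 1 (0.48) or 3 (0.53), and the probe sets of Dcn disagreed, their mean giving -0.15.

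Of 6 tested fibrillar collagens 3 were higher and 1 lower, of 10 basement membrane genes 3 were higher and 2 lower, and of 8 other collagens 2 were higher and 1 lower (2 without quiescent replicate 4). Col1a1, the main chain of collagen I, stood at 9.0, 7.92, 8.17, 6.71 and 8.01 and at 9.23, 8.88 and 9.16 (1.13 ± 0.38, adjusted p = 0.0267). Quiescent replicate 1 lay within the culture range, and the call was lost without culture replicate 1 (1.06) or 3 (1.09). Col6a3, a chain of the beaded-filament collagen VI, stood at 9.34, 8.62, 8.1, 7.07 and 8.0 in quiescent cells and at 4.06, 4.29 and 5.38 in culture, a difference of -3.65 ± 0.43 (adjusted p = 1.35e-05). Every culture array lay below every quiescent array. Col8a1, a chain of the network-forming collagen VIII, went the other way, from 4.11, 4.94, 7.02, 5.47 and 6.36 to 10.1, 9.86 and 9.82 (4.35 ± 0.51). The 3 culture arrays lay together above a quiescent spread of almost 3 log2 units. Col5a2 and Col14a1, which associate with fibrils of collagen I, rose by 1.31 ± 0.12 and 1.75 ± 0.34, whereas Col5a3 was lower (-2.72 ± 0.57, -0.79 and not called with values floored at log2 4). In the basement membrane list Col4a5 (6.4) and the linker protein gene Nid2 (3.91 ± 0.45) were higher, while Col4a1 and Col4a2 differed by -0.34 and -0.46, calls that both failed when any of quiescent replicates 1, 3, 4 and 5 or culture replicates 2 and 3 was left out (-0.19 and -0.23 without culture replicate 3).

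Among genes that process collagen, 5 of 21 were higher and 7 lower. Lox, which cross-links collagen and elastin, stood at 4.4, 4.98, 3.87, 5.05 and 3.53 and at 10.32, 9.92 and 9.85, the only one of the list to change more than 4-fold (5.66). P4ha2, a prolyl hydroxylase, and Pcolce, which speeds removal of the procollagen C-propeptide, rose by 1.25 ± 0.2 and 1.68 ± 0.33, and Crtap, a partner of a prolyl 3-hydroxylase, was lower (-0.85 ± 0.16). Without culture replicate 3 the lower members were 4, and without culture replicate 1 the higher members were 3.

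Of 17 tested matrix glycoproteins 6 were higher and 4 lower (2 without culture replicate 2), the lower share being that of all tested genes, 23.5%. Tnxb, which encodes tenascin X, stood at 9.34, 9.07, 7.97, 8.66 and 8.93 in quiescent cells and at 3.0, 3.0 and 4.77 in culture (-5.2 ± 0.55, adjusted p = 6.01e-06), so that no culture array came near the quiescent range. Abi3bp, which encodes a collagen-binding matrix protein, was lower too (-2.57 ± 0.67, and -1.5 without culture replicate 1), at 3.46, 5.76 and 7.59 on the culture arrays. The matricellular genes Thbs2 (4.92 ± 0.57), Ccn5 (4.91 ± 0.47) and Smoc2 (4.84 ± 0.37) were higher. Of 9 elastic fibre genes 4 were higher and 2 lower. Fbln5, which encodes a fibulin needed to assemble elastin, rose by 3.58 ± 0.31, and Ltbp4, which tethers latent TGF-beta and also acts in elastic fibres, was lower (-2.7 ± 0.38). Among proteases and their inhibitors 6 of 17 were higher and 1 lower (2 without culture replicate 2 or 3). Adamts5, an aggrecan-cleaving protease, stood at 5.15, 5.09, 5.01, 3.71 and 5.69 and at 9.98, 9.78 and 10.12. Mmp10 and Timp2 rose by 3.37 ± 0.82 and 1.32 ± 0.1, and Timp3, an inhibitor bound to the matrix, was lower (-1.71 ± 0.24).

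Of 30 tested genes of smooth muscle contraction, 9 were higher and 4 lower (2 without culture replicate 2). Acta2, the smooth muscle actin gene used as the marker of activation, stood at 11.2, 11.56, 12.0, 11.2 and 11.82 and at 13.12, 12.89 and 12.42 (1.25 ± 0.19, adjusted p = 0.000113). All culture arrays lay above all quiescent arrays on this probe set, the 1 probe set of Acta2 to reach log2 5 on at least 2 arrays. The mean of all Acta2 probe sets gave 0.41 and no call. Actg2, the enteric smooth muscle actin gene, stood at 3.41, 3.52, 4.27, 4.26 and 3.09 and at 6.58, 6.64 and 4.89 (2.33 ± 0.39, adjusted p = 0.000294), with culture replicate 3 the lowest of the culture arrays. The myosin light chain gene Myl9 (1.7 ± 0.27), the tropomyosin gene Tpm2 (1.55 ± 0.25) and the non-muscle myosin gene Myh10 (1.17 ± 0.3) were higher. Smtn, which encodes the actin-binding protein smoothelin, was lower (-2.0 ± 0.44), and its quiescent values were spread, at 5.69, 7.12, 5.34, 7.49 and 5.72. Integrins, the receptors that hold cells to the matrix, had 4 of 9 tested subunits higher and 1 lower. Itga8 stood at 5.31, 6.74, 5.94, 4.58 and 6.95 and at 9.76, 9.5 and 10.35 (3.96 ± 0.47), and Itgb5 and Itga1 rose by 2.24 ± 0.27 and 1.84 ± 0.27. Itga5, the alpha subunit of the main fibronectin receptor, was lower (-2.93 ± 0.75, but -1.91 and not called without quiescent replicate 4 and culture replicate 3 together). Of 24 targets of the YAP and TEAD factors, which respond to stiffness, 4 were higher and 5 lower, with Ankrd1 at -2.36 ± 0.48 and Ajuba at 1.8 ± 0.29.

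Genes of stellate identity and retinoid handling did not move as one. Of 27 tested, 9 were higher and 7 lower (4 lower without culture replicate 2). Aldh1a1, which oxidises retinaldehyde to retinoic acid, stood at 7.57, 7.87, 8.45, 6.56 and 8.39 and at 11.8, 11.53 and 11.9, a difference of 3.98 ± 0.45 (adjusted p = 1.11e-05). Colec10, which encodes a collectin, stood at 6.98, 8.16, 7.45, 4.9 and 7.75 and at 10.38, 11.17 and 12.17 (4.19 ± 0.84). In both genes the culture arrays lay above every quiescent array, and quiescent replicate 4 was the lowest of its group. Lrat, the enzyme that forms retinyl esters, followed the same order, at 5.63, 6.7, 6.02, 3.22 and 6.5 and at 8.73, 9.17 and 11.36 (4.14 ± 1.04, adjusted p = 0.00515), and its call was lost without quiescent replicate 4 and culture replicate 3 together (2.73). The carotenoid-cleaving enzyme Bco1 (2.45 ± 0.41), the retinaldehyde reductase Dhrs3 (2.27 ± 0.52), the retinoic acid receptor gene Rarb (1.85 ± 0.36) and the transcription factor gene Tcf21 (1.95 ± 0.26) rose too. The retinol dehydrogenase Rdh10 (-1.46 ± 0.37), the receptor gene Vipr1 (-2.25 ± 0.42), the transcription factor gene Gata4 (-1.3 ± 0.3), the matrix gene Ecm1 (-1.1 ± 0.23) and, among the stellate markers, the signalling regulator Rgs5 (-2.24 ± 0.34) were lower.

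**Figure D2:**
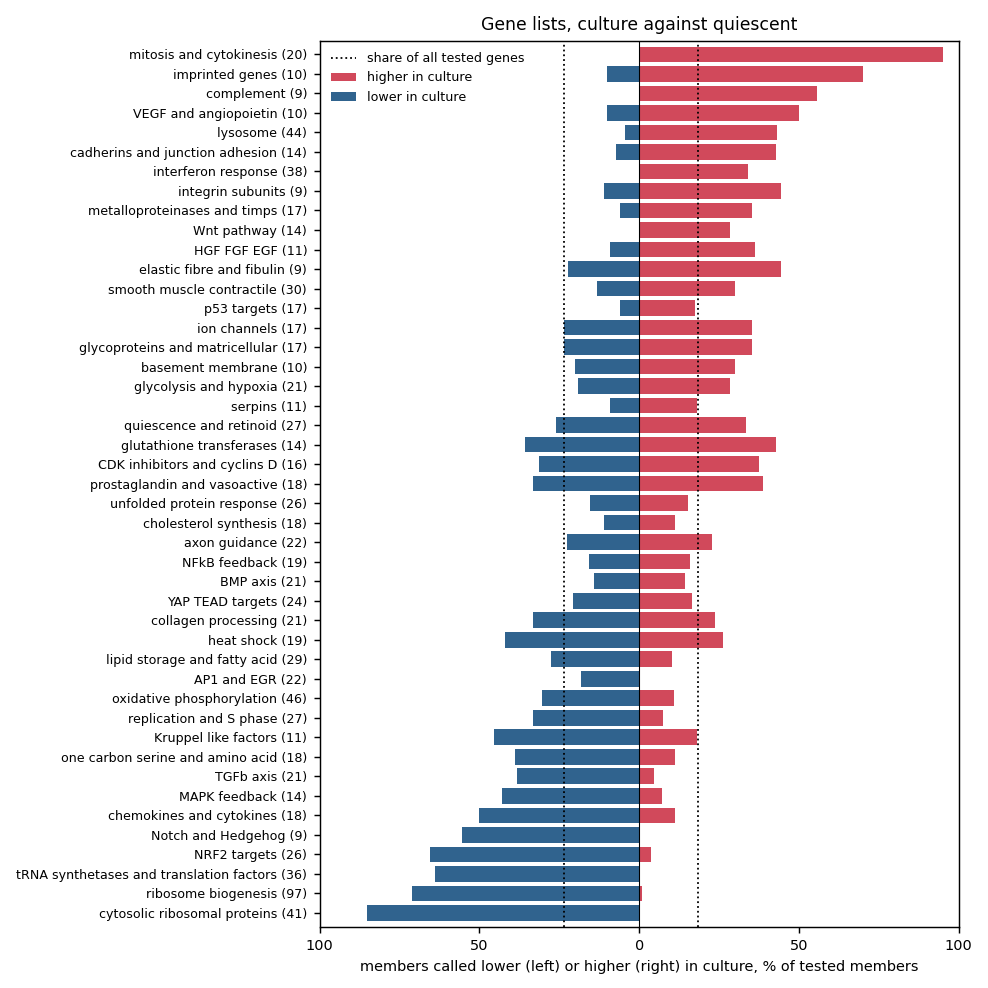
Share of the tested members of each gene list called higher (right, red) or lower (left, blue) in culture than in quiescent cells, for the lists with at least 9 tested members (number in brackets); dotted lines mark the shares over all tested genes, 18.5% and 23.5%. Mitosis genes stand at the top with 19 of 20 higher, and cytosolic ribosomal proteins at the bottom with 35 of 41 lower.

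Genes of mitosis rose, while the called share of replication genes, 40.7%, was near the 42.1% of all tested genes. Of 20 tested genes of mitosis and cytokinesis 19 were higher and none lower (median difference 2.00), whereas of 27 genes of replication and S phase 2 were higher (1 without culture replicate 3) and 9 lower (median -0.49, and 5 lower, a smaller share than the background of 23.5%, without culture replicate 1, 2 or 3). Cdk1, the kinase that drives entry into mitosis, stood at 3.3, 2.16, 3.12, 2.19 and 2.91 on the quiescent arrays and at 6.39, 6.19 and 6.06 on the culture arrays, a difference of 3.48 ± 0.32 (adjusted p = 1.56e-06). Anln, which encodes a scaffold of the cleavage furrow, stood at 3.68, 3.65, 4.76, 2.95 and 4.42 and at 7.15, 6.86 and 7.35 (3.23 ± 0.38). All 3 culture arrays of both genes lay above all 5 quiescent arrays. Birc5 (survivin, 2.86 ± 0.33), Pttg1 (securin, 2.02 ± 0.31), Cdca8 (1.79 ± 0.35) and Mad2l1 (1.4 ± 0.24) also rose. The levels behind this were low, with a list mean of 2.67 to 3.43 in quiescent and 4.87 to 5.11 in culture. Only 20 of 43 genes on the array passed the filter, 12 of them only through coculture or injury arrays. On the 8 culture and quiescent arrays alone 8 genes passed and 7 were higher, with no filter 23 of 43 were higher, and with values floored at log2 4 the count was 7 of 20.

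In the replication list Cdt1, which loads the replicative helicase onto DNA, stood at 7.99, 7.31, 8.16, 6.69 and 7.81 and at 5.21, 5.82 and 5.84, a difference of -1.97 ± 0.28 (adjusted p = 6.45e-05). The helicase subunit gene Mcm2 stood at 7.68, 6.8, 7.42, 7.55 and 7.31 and at 5.95, 6.0 and 5.8 (-1.44 ± 0.21), and Mcm3 was lower by less (-0.76 ± 0.17). These genes, unlike the mitotic ones, were clearly expressed on every quiescent array and lower on every culture array. Rrm2, the inducible subunit of ribonucleotide reductase, was the exception that rose on all settings tried (2.01 ± 0.38), and Rrm1 rose by 1.22, not called without culture replicate 1 (1.16) or 3 (1.17). Among cyclins and CDK inhibitors 6 of 16 were higher and 5 lower (2 lower without culture replicate 3). Ccnd1, the cyclin of early G1, was lower (-1.81 ± 0.3) with its partner Cdk4 (-0.79 ± 0.15), and Ccng2, a cyclin linked to cell cycle arrest (2.71 ± 0.39), the inhibitor gene Cdkn2d (1.71 ± 0.36) and Ccnd3 (1.5 ± 0.24) were higher.

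**Figure D3:**
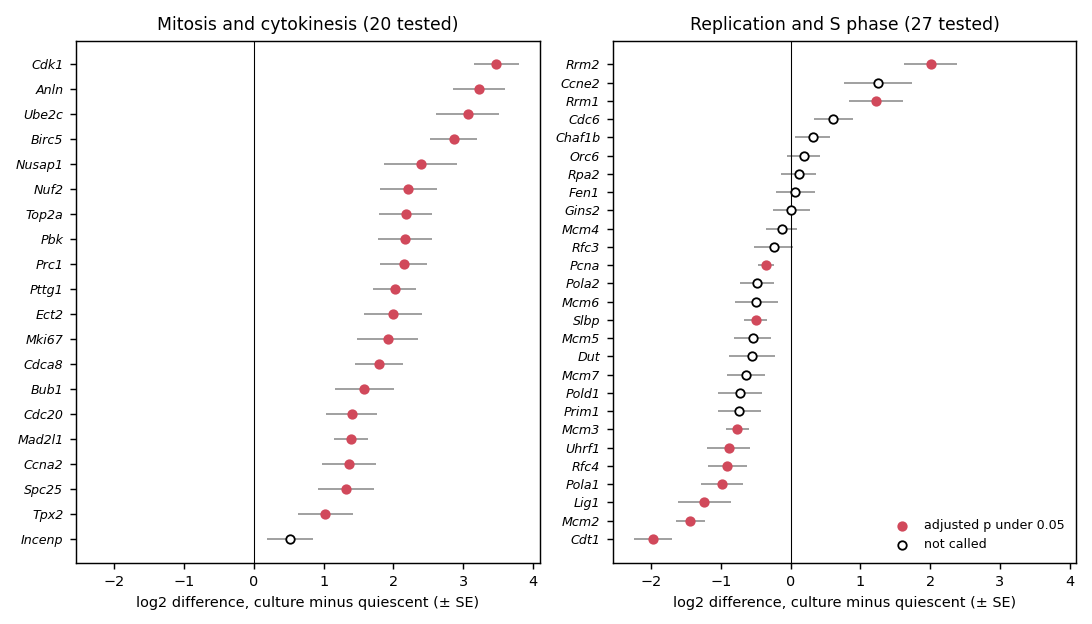
Log2 difference, culture minus quiescent, with its SE for each tested gene of mitosis and cytokinesis (left) and of replication and S phase (right); filled points passed the test and open points did not. The mitotic genes run from 0.52 to 3.48, all above 0, and the replication genes run from -1.97 (Cdt1) to 2.01 (Rrm2), with most below 0.

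The start regions of both lists were searched for elements known from cell cycle promoters. The window ran from 250 bases before to 50 after a RefSeq gene start in GRCm38.p6, searched on both strands. The search took 1 window per gene and left out 1 chromosome, and genes without a window were not searched. The cell cycle homology region (CHR, TTTGAA or TTCGAA) was in 11 of 16 mitotic windows (68.8%) and in 4 of 24 replication windows (16.7%), against 19.4% of 27025 windows and 13.1% of those of tested genes. E2F letters (TTTCCCGC, TTTGGCGC or TTTCGCGC) were in 1 of 16 mitotic windows (6.2%) and 9 of 24 replication windows (37.5%), against 1.9% and 4.0%. CCAAT was in 62.5% of each list, against 37.9% of all windows. Matches may overlap one another, and they describe the sequence without showing use of a site. All 16 mitotic genes with a window were called higher, the 5 without a CHR as well as the 11 with one, and of the 9 replication genes with E2F letters 6 were not called. Shown are the 250 bases before the start of Cdk1 (chr10:69352913-69353162, minus strand) and Ube2c (chr2:164769679-164769928, plus strand), which rose, and of Pola1 (chrX:93632156-93632405, minus strand), the replicative polymerase subunit gene, which was lower. Capitals mark CHR and CCAAT letters in the first pair and E2F letters in Cdk1 and Pola1, on either strand; Cdk1 is the mitotic gene whose window holds both CHR and E2F letters.
Cdk1: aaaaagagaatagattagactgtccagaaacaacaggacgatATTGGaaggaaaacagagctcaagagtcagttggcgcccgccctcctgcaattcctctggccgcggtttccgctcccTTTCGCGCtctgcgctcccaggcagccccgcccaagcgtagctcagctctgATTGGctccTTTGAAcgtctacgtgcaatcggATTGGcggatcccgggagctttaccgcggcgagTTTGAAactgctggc
Ube2c: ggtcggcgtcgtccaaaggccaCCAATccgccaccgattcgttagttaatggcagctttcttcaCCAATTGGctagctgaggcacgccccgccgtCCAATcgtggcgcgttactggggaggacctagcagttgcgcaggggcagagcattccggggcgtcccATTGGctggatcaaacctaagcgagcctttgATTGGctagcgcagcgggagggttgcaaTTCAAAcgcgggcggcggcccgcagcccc
Pola1: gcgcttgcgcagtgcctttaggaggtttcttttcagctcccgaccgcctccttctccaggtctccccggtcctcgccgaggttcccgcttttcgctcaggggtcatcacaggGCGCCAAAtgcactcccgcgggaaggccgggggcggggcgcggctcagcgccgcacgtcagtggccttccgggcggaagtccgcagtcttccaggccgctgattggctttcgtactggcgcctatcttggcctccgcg
Ube2c, a ubiquitin-conjugating enzyme of mitotic exit, stood at 1.24, 1.55, 1.86, 1.63 and 1.97 and at 5.38, 4.5 and 4.28 (3.07 ± 0.45, and 0.72 and not called with values floored at log2 4). Pola1 stood at 4.68, 5.14, 5.27, 4.8 and 5.23 and at 3.49, 4.3 and 4.33 (-0.98 ± 0.3, and -0.71 and not called without culture replicate 1).

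Genes that build ribosomes fell together. Of 97 tested genes of ribosome biogenesis, a list drawn up after these data were seen, 69 were lower and 1 higher (Gnl3l, 0.58, not called without culture replicate 3, 0.40), with a median difference of -0.86. Fbl, the methyltransferase that modifies ribosomal RNA, stood at 9.9, 9.68, 9.97, 10.28 and 10.06 and at 7.96, 7.9 and 7.81, a difference of -2.09 ± 0.14 (adjusted p = 9.07e-08). Ncl, which encodes the nucleolar protein nucleolin, stood at 11.78, 11.56, 11.51, 12.03 and 11.82 and at 10.45, 10.38 and 10.22 (-1.39 ± 0.13). Both had narrow ranges within each group and a gap between the groups. The lower genes ran from the RNA polymerase I subunit gene Polr1a (-1.32 ± 0.26) and its cofactor gene Tcof1 (-2.19 ± 0.28), through the processome genes Heatr1 (-2.09 ± 0.2) and Utp20 (-2.11 ± 0.2) and the box C/D core proteins Nop56 (-1.62) and Nop58 (-1.5), to Rrp12, which acts in export of the subunits (-2.47 ± 0.29), and Bop1 (-1.84), needed for the large subunit. The lower members numbered 52 to 71 over the 21 alternatives (52 of 75 where genes had to reach log2 7), and 60 without culture replicate 3.

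Of 41 tested cytosolic ribosomal protein genes 35 were lower and none higher, by a median of -0.48. Their changes were small next to their level, as the list means of 11.59 to 11.78 on quiescent and 11.01 to 11.13 on culture arrays show. Many of their probe sets can also bind processed pseudogenes; on the 14 genes read by unique probe sets, 12 were lower. Of 36 tRNA synthetases and translation factors, a list also drawn up afterwards, 23 were lower and none higher (median -0.60), with the initiation factor gene Eif3b at -1.54 ± 0.2 and the elongation factor gene Eef2 at -0.77 ± 0.12. Myc, a transcription factor known to drive ribosome production, stood at 7.6, 8.75, 7.92, 10.18 and 7.71 and at 6.31, 6.05 and 5.79 (-2.38 ± 0.45, adjusted p = 0.000692), with quiescent replicate 4 the highest. Cad, the enzyme that starts pyrimidine synthesis, stood at 7.99, 7.2, 7.61, 7.89 and 7.36 and at 4.2, 3.61 and 4.02 (-3.67 ± 0.26), and no array of one group came within 2 log2 units of the other. In serine, one-carbon and amino acid metabolism 7 of 18 were lower and 2 higher (none without culture replicate 3), among the lower ones the amino acid transporter Slc7a5 (-2.19 ± 0.39), Mthfd1l (-2.0 ± 0.19), Psat1 (-1.49 ± 0.37) and Shmt2 (-1.45 ± 0.28).

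The E-box letters CACGTG, which MYC and related factors bind, were in 17 of 82 windows of ribosome biogenesis genes (20.7%) and in 3 of 36 of ribosomal protein genes (8.3%), against 7.2% of all windows and 11.2% of those of tested genes. Of the 57 lower ribosome biogenesis genes with a window 13 held the letters, and the other genes of that list that held them were not called. This search was added after these values were seen, and whether MYC acts on these genes was not tested. The 250 bases before the start of Nop2, a methyltransferase of the large-subunit RNA that was lower in culture (-1.42 ± 0.3), show one E-box in capitals, at chr6:125131633-125131882, plus strand.
Nop2: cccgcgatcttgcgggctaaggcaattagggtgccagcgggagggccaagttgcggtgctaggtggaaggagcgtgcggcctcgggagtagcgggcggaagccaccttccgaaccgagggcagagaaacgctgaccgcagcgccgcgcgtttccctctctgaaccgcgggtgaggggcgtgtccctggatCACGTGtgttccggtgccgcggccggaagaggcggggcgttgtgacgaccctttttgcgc

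Genes of the oxidative stress response governed by NRF2 were lower as a group. Of 26 tested, 17 were lower and 1 higher (median -1.01). Srxn1, which repairs oxidised peroxiredoxins, stood at 9.43, 8.88, 9.14, 10.21 and 8.93 and at 5.81, 6.0 and 6.16 (-3.33 ± 0.25). Nqo1, a quinone reductase, stood at 7.88, 7.13, 8.52, 7.57 and 8.07 and at 3.81, 4.13 and 5.73 (-3.28 ± 0.41, adjusted p = 2.12e-05). No culture array reached the quiescent range in either gene. The pentose phosphate enzymes Taldo1 (-2.37 ± 0.15), Pgd (-1.47 ± 0.17) and Tkt (-0.95 ± 0.12), the glutathione synthesis genes Gclc (-2.09) and Gclm (-1.87 ± 0.24), the biliverdin reductase Blvrb (-3.25 ± 0.21) and the exporter Abcc1 (-1.82 ± 0.27) were lower, whereas the epoxide hydrolase Ephx1 was higher (1.72 ± 0.35). Hmox1, a heme oxygenase, was at -1.21 ± 0.44 and not called without quiescent replicate 4 (-0.87), quiescent replicate 5 (-1.19) or culture replicate 3 (-0.81). Letters of the antioxidant response element (TGACNNNGC) were in 6 of 22 windows of these genes (27.3%), against 12.5% of all windows and 15.3% of those of tested genes; of 13 lower genes with a window 2 held them, Srxn1 and Gclm.

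Glutathione transferases went both ways, with 5 of 14 lower and 6 higher. The alpha class fell, with Gsta2 at 7.92, 7.61, 9.09, 8.89 and 7.95 and at 2.01, 2.34 and 2.31 (-6.07 ± 0.33, adjusted p = 9.84e-09), Gsta4 at -3.01 ± 0.33 and Gsta3 at -2.32 ± 0.24, as did Gstp1 (-1.55) and Gsto1 (-1.24 ± 0.21). The theta class member Gstt1 (2.17 ± 0.41), Gstm4 (1.49 ± 0.25) and the microsomal Mgst3 (2.09 ± 0.28) rose. These families hold similar sequences, so probe sets may share signal between members. Of 19 heat shock genes 8 were lower and 5 higher. The inducible chaperone genes Hspa1a (-3.48 ± 0.81) and Hspa1b (-3.13 ± 0.61) and their cochaperone gene Bag3 (-1.7 ± 0.21) were lower, and the small heat shock protein genes Hspb1 (2.3 ± 0.58) and Hspb6 (2.59 ± 0.28) were higher. Hspa1a stood at 8.98, 8.82, 5.84, 9.41 and 8.27 and at 3.24, 5.11 and 6.01, so quiescent replicate 3 fell within the culture range.

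Several growth factor ligand genes rose from near background. Among 10 tested VEGF and angiopoietin genes 5 were higher and 1 lower. Vegfd, a ligand of the lymphatic VEGF receptor, stood at 1.88, 2.27, 3.25, 1.21 and 3.6 and at 8.13, 7.92 and 8.21 (5.64 ± 0.7, adjusted p = 2.12e-05). Vegfc and Angpt2 rose by 1.68 ± 0.16 and 2.31 ± 0.41, and Vegfb was lower (-0.93 ± 0.22). In the insulin-like growth factor axis 2 of 8 were higher and 2 lower (1 without quiescent replicate 1 or 2 or culture replicate 3). The carrier gene Igfbp3 stood at 6.62, 6.42, 7.2, 7.31 and 7.4 and at 12.98, 12.74 and 12.93, with all 3 culture arrays more than 5 log2 units above every quiescent array. Igfbp4, another carrier, was lower (-3.13 ± 0.45), and Irs1, an adaptor of the receptor, was higher (1.91 ± 0.46). Of 4 tested PDGF genes, Pdgfd was higher and the receptor gene Pdgfra was lower (-1.02, not called without culture replicate 1, -0.83), with Pdgfrb at 0.10 ± 0.17.

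In the TGF-beta axis 8 of 21 genes were lower and 1 higher. The higher one, Tgfb2, stood at 5.82, 6.52, 5.94, 5.84 and 6.44 and at 9.02, 8.62 and 8.41 (2.57 ± 0.22, adjusted p = 7.7e-07), while Tgfb1 was at -1.09 and its call was lost without culture replicate 2 (-0.85). The corepressor gene Ski was lower (-0.96 ± 0.21). In the BMP axis 3 of 21 were higher and 3 lower (1 lower without culture replicate 1), with the ligand gene Bmp4 at 2.47 ± 0.47 and the target gene Id1 at -1.87 ± 0.48. Among HGF, FGF and EGF genes 4 of 11 were higher and 1 lower (2 without quiescent replicate 1). The receptor gene Fgfr1 stood at 9.18, 8.32, 7.94, 9.21 and 8.1 and at 5.22, 5.05 and 4.74 (-3.55 ± 0.35), and the EGF receptor ligand gene Btc rose from near background (3.99 ± 0.36). Of 14 Wnt genes 4 were higher and none lower, led by Dkk3 (3.29 ± 0.49) and the receptor gene Fzd8 (1.12 ± 0.29); without quiescent replicate 4 they were 2 higher and 1 lower. Of 9 Notch and Hedgehog genes 5 were lower (3 without culture replicate 1) and none higher (1 without quiescent replicate 4), among them Notch1 (-1.14 ± 0.29) and Gli3 (-0.77 ± 0.22).

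**Figure D4:**
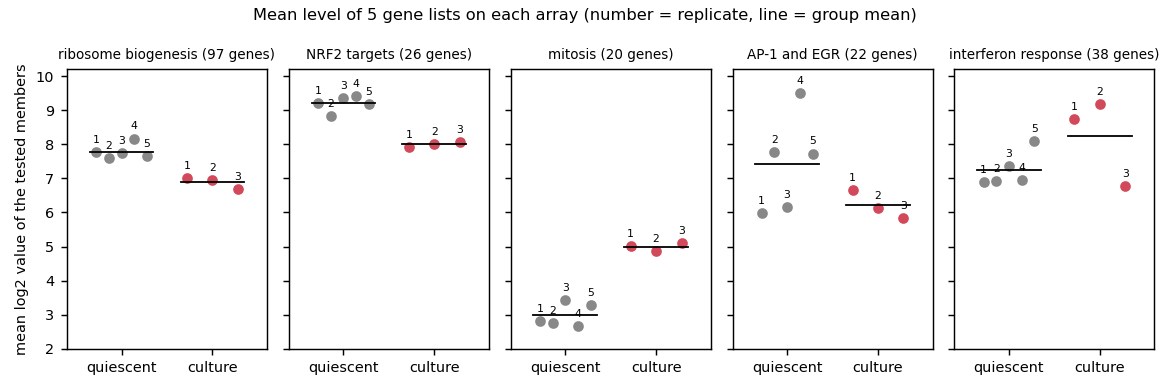
Mean log2 value of the tested members of 5 gene lists on each array, with replicate numbers beside the points and lines at the group means. Ribosome biogenesis, NRF2 and mitosis genes separate the groups on every array, whereas the AP-1 and EGR list spans 5.97 to 9.51 over the quiescent arrays and the interferon list spans 6.78 to 9.18 over the culture arrays.

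Immediate early genes, which rise within minutes of a stimulus, depended on the quiescent array. The mean of 22 AP-1 and EGR genes was 5.97, 7.78, 6.15, 9.51 and 7.73 on the quiescent arrays and 6.66, 6.12 and 5.84 on the culture arrays, so quiescent replicates 1 and 3 lay within the culture range. Limma called 4 of 22 lower and none higher (8 lower without quiescent replicate 1, 2 without culture replicate 2, and 1 higher without quiescent replicate 5 or culture replicate 3). Egr1 stood at 7.06, 8.11, 7.0, 11.75 and 11.49 and at 7.32, 7.52 and 8.03 and was not called (-1.46 ± 0.91, adjusted p = 0.211). Fosl1, which encodes the AP-1 subunit FRA-1, stood at 7.66, 9.05, 8.48, 10.36 and 7.25 and at 5.33, 3.68 and 3.29 and was lower on every culture array (-4.46 ± 0.61). In the feedback of the MAP kinases 6 of 14 were lower and 1 higher. The ERK phosphatase gene Dusp5 stood at 7.6, 9.59, 6.13, 11.04 and 7.29 and at 4.53, 3.51 and 4.11 (-4.28 ± 0.81), with quiescent replicates 4 and 2 highest, and Dusp4 was lower too (-3.54 ± 0.4). The receptor feedback inhibitor gene Spry1 was higher (1.68 ± 0.34). Of 11 Krüppel-like factor genes 5 were lower and 2 higher, with Klf10 at -1.29 ± 0.26 and Klf2 at -0.75 ± 0.18; leaving out single arrays gave 2 to 6 lower, the fewest without culture replicate 2, and 0 to 2 higher, the fewest without culture replicate 3.

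Interferon response genes depended on the culture array. Of 38 tested 13 were higher and none lower, but 26 without culture replicate 3, 7 without replicate 1 and 6 without replicate 2. Rsad2, the antiviral gene with the largest range over the culture arrays, stood at 9.31, 9.77 and 3.27 there and at 5.56, 4.8, 5.33, 5.83 and 7.06 on the quiescent arrays, and was not called (1.74 ± 1.1, adjusted p = 0.218). Culture replicate 3 lay below every quiescent array for this gene. Ifi47, an interferon-induced GTPase gene, stood at 4.92, 5.87, 6.28, 4.69 and 6.91 and at 9.26, 9.6 and 7.68 (3.12 ± 0.48), with culture replicate 3 the lowest of its group but above all quiescent arrays. Gbp2 (1.69), Isg20 (2.17 ± 0.44), Trim30a (2.08 ± 0.42) and Ifit2 (2.39) were called in every alternative that tested them.

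Of 18 tested chemokines and cytokines 9 were lower (4 without culture replicate 3) and 2 higher (1 without culture replicate 1 or 2). Il33, an alarmin cytokine gene, stood at 8.82, 8.32, 5.5, 8.37 and 7.33 and at 4.43, 3.32 and 2.59 (-4.22 ± 0.64, adjusted p = 0.000121), and Tslp, a cytokine gene of barrier tissues, stood at 5.93, 7.53, 7.57, 7.39 and 7.5 and at 3.7, 4.01 and 3.19 (-3.55 ± 0.54). Both were lower on every culture array than on any quiescent array. The interferon-induced chemokine Cxcl10 stood at 4.72, 4.29, 3.81, 4.76 and 4.93 and at 9.87, 10.82 and 6.06 (4.42 ± 0.88), and Il6 at 2.18, 3.28, 1.67, 4.95 and 2.98 and at 9.04, 7.77 and 2.79 (3.52, not called without culture replicate 1, 2.27, or 2, 2.90, and 5.39 without replicate 3). Both were lowest in culture replicate 3, and there Il6 fell within the quiescent range. Cxcl16 was lower (-1.5 ± 0.3). Of 9 tested complement genes 5 were higher and none lower (1 without culture replicate 2), with C2 at 3.39 ± 0.45, the C1 inhibitor gene Serping1 at 1.91 ± 0.23 and the membrane regulator gene Cd59a at 1.87 ± 0.34. Of 19 genes of NF-kB feedback 3 were higher (1 without quiescent replicate 1 or culture replicate 2) and 3 lower, with Tnfaip2 at -2.41 ± 0.37.

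Metabolic lists differed in the size of their changes. Called changes of at least 2-fold were 2 higher and 6 lower of 29 lipid genes, and 4 higher and 2 lower of 21 glycolysis and hypoxia genes. For 44 lysosomal genes they were 6 higher and 1 lower, and over all tested genes 8.81% higher and 8.1% lower. Of 29 lipid genes 8 were lower and 3 higher, with the elongase gene Elovl6 (-2.43 ± 0.42), the fatty acid synthase gene Fasn (-1.71 ± 0.27) and the acetyl-CoA carboxylase gene Acaca (-1.12 ± 0.18) lower and the lipoprotein lipase gene Lpl higher (1.84 ± 0.29). Of 44 lysosomal genes 19 were higher and 2 lower (1 without culture replicate 3), with a median of 0.40. Ctsf, which encodes a cysteine cathepsin, stood at 1.8, 2.31, 2.19, 2.1 and 2.57 and at 5.2, 5.38 and 5.7 (3.23 ± 0.32), a rise from background to a low level. The cathepsin gene Ctso (1.91 ± 0.19) and the mannosidase gene Man2b1 (1.85 ± 0.23) rose, and the cholesterol transporter gene Npc1 was lower (-1.09 ± 0.19). Of 46 genes of oxidative phosphorylation 14 were lower (8 without culture replicate 3) and 5 higher (3 without culture replicate 2), none by 2-fold. In glycolysis and hypoxia 6 of 21 were higher (3 without culture replicate 1) and 4 lower, with the mitophagy gene Bnip3 at 2.7 ± 0.21, Ndrg1 at 1.65 ± 0.36 and the neuronal enolase gene Eno2 at -1.77 ± 0.39.

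Of 18 tested prostaglandin and vasoactive genes (ligands, receptors and enzymes) 7 were higher and 6 lower. Npr3, the clearance receptor of natriuretic peptides, stood at 7.1, 5.67, 6.32, 7.22 and 6.58 and at 10.76, 10.44 and 10.4 (3.96 ± 0.27, adjusted p = 9.07e-08). Ramp1, which turns the calcitonin receptor-like protein into a CGRP receptor, was higher (3.72 ± 0.63), and Ramp2, which turns it into a receptor of adrenomedullin, was lower (-2.6 ± 0.29), while the adrenomedullin gene Adm itself rose (2.96 ± 0.48). The angiotensin receptor gene Agtr1a rose (1.7 ± 0.28), and the prostacyclin synthase gene Ptgis was lower (-2.1 ± 0.23). In channels 6 of 17 were higher and 4 lower. Gja1, the gap junction protein connexin 43, stood at 11.49, 11.68, 11.29, 11.49 and 11.62 and at 9.29, 8.88 and 9.57 (-2.27 ± 0.21), and the potassium channel gene Kcnj8 was lower (-1.98 ± 0.47). Among guidance genes 5 of 22 were higher (1 to 5 when single arrays were left out) and 5 lower. The receptor gene Robo2 stood at 8.26, 8.24, 6.46, 7.84 and 6.54 and at 3.76, 2.85 and 4.08 (-3.9 ± 0.63), and the ephrin receptor gene Epha3 stood at 2.46, 3.6, 2.91, 1.48 and 3.1 and at 6.95, 7.53 and 7.8 (4.72 ± 0.48). In cell adhesion 6 of 14 were higher and 1 lower, with Alcam at 2.97 ± 0.28 and the hyaluronan receptor gene Cd44 at -1.46 ± 0.2. Of 10 imprinted genes, which are transcribed from the allele of one parent and many of which act in growth, 7 were higher and 1 lower, led by Peg3 (2.21 ± 0.31) and Sgce (1.7 ± 0.16); the lower one, Igf2r (-0.92), was not called without quiescent replicate 1 (-0.81) or 2 (-0.77) or culture replicate 3 (-0.63).

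Some lists described above had called shares below the 42.1% of all tested genes. These were AP-1 and EGR (18.2%), BMP and Wnt (28.6% each), NF-kB feedback (31.6%), interferon response (34.2%) and YAP and TEAD targets (37.5%). Other collagens (37.5%), lipid genes (37.9%), replication (40.7%), proteases and inhibitors (41.2%) and oxidative phosphorylation (41.3%) were below it too, and smooth muscle (43.3%) was near it. The lists given next had called shares of 30.8%, 22.2%, 23.5% and 27.3%, in that order, also below it, and each went in both directions. Of 26 genes of the unfolded protein response 4 were higher (1 without culture replicate 1 or 2) and 4 lower (1 without culture replicate 3), of 18 cholesterol genes 2 were higher and 2 lower (none higher without quiescent replicate 2 or culture replicate 1, and none lower without culture replicate 3), of 17 p53 targets 3 were higher and 1 lower, and of 11 serpins 2 were higher and 1 lower. The p53 list had 1 higher without culture replicate 2 and 5 without quiescent replicate 3, and 2 lower without quiescent replicate 1. Serpinb2, an inhibitor of plasminogen activators, stood at 7.13, 7.13, 6.0, 9.39 and 4.78 and at 1.78, 2.63 and 1.41 (-4.95 ± 0.72), a wide quiescent spread that still lay wholly above culture. Among 6 tested caveolar genes, a list drawn up afterwards, Cavin2 was the called member (4.21 ± 0.45). At the other end were genes with narrow intervals around 0. Rps29 (-0.04 ± 0.05), Rps28 (-0.01 ± 0.06), Rps20 (0.02 ± 0.07), the galectin gene Lgals1 (0.09 ± 0.06) and Tpt1 (-0.01 ± 0.06) had the narrowest 95% intervals among uncalled genes with a mean of at least log2 9, the first 3 of them from the ribosomal protein family whose other members mostly fell.

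Cultured cells were then set against the other groups, in 2 comparisons of the same fit that hold no quiescent array. They share the culture arrays with the comparison above, and genes picked for a high or low culture value tend to differ in both for that reason, so their counts describe the genes and support nothing. Against the mean of bile duct ligation and CCl4, whose cells also spent less time on plastic, limma called 50.9% of all tested genes, 25% higher and 25.9% lower in culture. Of the 15 largest increases 13 were higher in culture than after injury, Cd200 was lower (-0.68 ± 0.25) and Lox was not called (0.55 ± 0.29, adjusted p = 0.133). Of the 15 largest decreases 13 were lower, while Ntm (-0.42 ± 0.35) and Egr3 (-2.1 ± 1.14) were not called. Igfbp3 averaged 6.71 after bile duct ligation and 7.19 after CCl4, close to its quiescent mean of 6.99, against 12.88 in culture (5.93 ± 0.3 log2 above the injuries, adjusted p = 8.25e-09). Angpt1 (6.23 ± 0.32), Ogn (7.69 ± 0.51), Aldh1a1 (4.75 ± 0.44) and Lrat (5.46 ± 1.01) were likewise higher in culture than after injury. Gsta2 and Cad were high in both injuries (7.67 and 9.13, 7.75 and 7.22) and near log2 2 and log2 4 in culture.

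Several lists described above were also set against the injuries. Of 6 small leucine-rich proteoglycans 5 were higher in culture and 0 lower, and of 41 ribosomal protein genes 36 were lower and 0 higher. Of 97 ribosome biogenesis genes 79 were lower in culture than after injury and 1 higher (median -0.93), of 26 NRF2 targets 17 were lower and 2 higher (median -0.99), and of 27 replication genes 24 were lower and none higher (median -1.35). Among the 20 mitotic genes 10 were lower in culture and 0 higher. Most of the 20 had passed the filter only through coculture or injury arrays, which partly sets this count. Fbl averaged 7.89 in culture against 9.78 and 9.81 after injury (-1.9 ± 0.14). Col1a1 was lower in culture than after injury by -2.45 ± 0.37, and Acta2 did not pass (-0.19 ± 0.18, adjusted p = 0.392).

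Coculture with Kupffer cells differed from culture alone in 15.4% of tested genes, 8.37% higher and 7.03% lower in coculture. All 20 mitotic genes and 24 of 27 replication genes were higher in coculture (medians 2.54 and 1.69), but 88 of 97 ribosome biogenesis genes and 21 of 26 NRF2 targets were not called (medians 0.32 and 0.10). Most of the mitotic genes had passed the filter only through coculture or injury arrays, so the filter partly sets their count. Several of the genes that rose most in culture were lower in coculture. Igfbp3 averaged 5.73 in coculture (-7.16 ± 0.39 from culture, adjusted p = 6.53e-08), Angpt1 2.39 (-5.21 ± 0.41) and Itga8 5.47 (-4.39 ± 0.58). Serpinb2 went from 1.94 in culture to 10.77 in coculture (8.83 ± 0.89), and Cad (0.09 ± 0.32) and Gsta2 (-0.39 ± 0.42) did not pass. With 2 coculture arrays these intervals are wide.

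**Figure D5:**
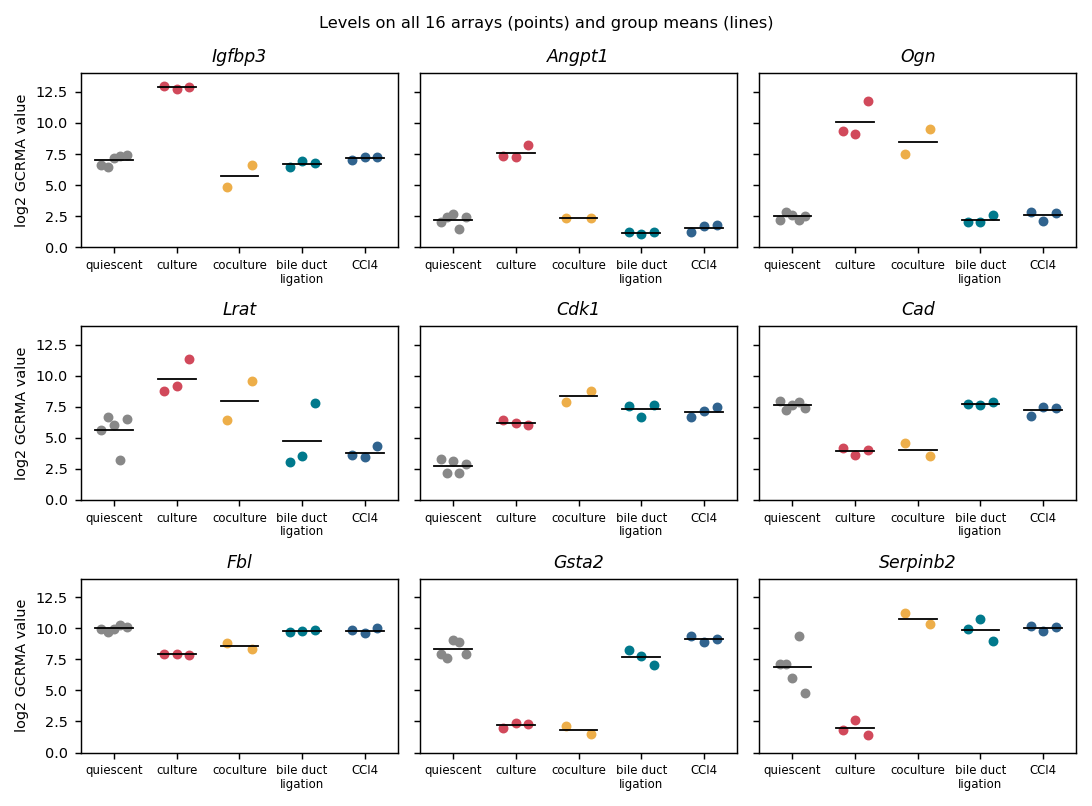
Log2 expression of 9 genes on all 16 arrays by group, with lines at the group means. Igfbp3 and Angpt1 are high only in the 3 culture arrays among the groups shown, Gsta2 and Cad are low in culture and coculture, and Cdk1 is lowest in the quiescent arrays.

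Most markers of other cells were at background in both groups, with the exceptions given here. Averaged over all members on the array, the hepatocyte list lay at 1.55 to 2.02 on quiescent and 1.92 to 2.20 on culture arrays, the macrophage list at 1.89 to 2.09 and 2.22 to 2.26, the lymphocyte list at 1.48 to 1.75 and 1.42 to 1.72, and the endothelial list at 2.46 to 2.58 and 2.46 to 2.70. Within the endothelial list Eng was high in both groups (9.66 and 9.49, not called), as was Egfl7 (6.36 and 6.01, not called), and Plvap was high and rose (10.08, 10.48, 10.06, 9.53 and 10.43 and 11.19, 11.29 and 11.52). Of 25 macrophage markers 4 passed the filter. Cd68 was lower in culture (7.22, 7.77, 6.06, 7.13 and 6.92 and 3.77, 4.88 and 2.57), Lyz1 and Lyz2 were higher (4.88 and 2.93), and Ctss was not called (2.33 to 4.16 over the 8 arrays). Below the filter, Csf1r lay at 3.1 to 3.91, while Adgre1, Clec4f, C1qa and Timd4 stayed at or below 2.14 on all 8 arrays. Adgre4, below the filter, stood at 1.85 to 2.18 on the quiescent arrays and at 3.18, 2.75 and 6.76 on the culture arrays. Of 6 tested portal fibroblast markers 1 was higher and 2 lower. Gpx3 was higher (5.21, 5.95, 3.18, 4.7 and 5.22 and 7.14, 9.01 and 9.31), Ntm (-4.57) and Rgs5 (-2.24), also a pericyte gene, were lower, Gas6 went from 2.71 to 4.65 without passing the filter, and Thy1, Cd34 and Gli1 stayed at or below 1.70. Of 15 cholangiocyte, 18 neutrophil or dendritic and 17 lymphocyte markers 1, 1 and 0 passed the filter, so the lymphocyte list gave no test. The tested genes of the other lists, Krt19 (1.58 and 2.33) and S100a8 (1.62 and 1.77), were not called. Of 9 erythroid or platelet markers Pf4 was lower (-2.01). Of 19 mesothelial markers 7 were tested and none was called, but 2 averaged log2 5 or more in each group. Of 17 smooth muscle and pericyte markers 3 were higher and 2 lower. Among these 17, 4 averaged log2 5 or more in quiescent and 7 in culture, including Des (8.54 and 8.42) and Kcnj8 (9.23 and 7.25). Whether rare cells of these kinds contribute to Lyz1, Lyz2, Adgre4, Cd68, Plvap or Gpx3 was not tested.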

How the data were processed

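Total RNA of each sample was labelled in 1 cycle and hybridised to one Affymetrix mouse genome array. The authors deposited log2 expression values per probe set (45101 of them), made with GCRMA per the submitters' processing notes; neither a version nor settings are recorded there. Array precision is limited by the number of arrays, 5 against 3. Each gene was represented by the probe set of highest average over the 16 arrays, among 34945 probe sets with 1 symbol (932 had several), and was tested at log2 5 or more on at least 2 arrays. The 5 group means were fitted with limma 3.58.1 in R 4.3.3 (eBayes with trend), and calls were made at a Benjamini-Hochberg adjusted p under 0.05, two-sided, over all 7823 genes. On simulated data for culture minus quiescent over 7823 genes, the fit recovered 70% of genes changed by log2 1 and 95% of those changed by log2 2, with 10 false calls. The simulation used independent normal noise and changed only 100 genes by each amount. That share is far below the 42.1% called in the data, so these rates do not carry over to the calls.

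Alternatives changed the arrays in the fit, filter, probe set rule, scaling, variance prior, low-value floor, array weights and replicate block, or left out arrays. Gene lists and members were chosen with earlier results of these data known. Named genes were drawn from the 15 largest changes each way without overlap and up to 4 called members per list and direction with the smallest p. The rule also took in a fixed set, genes switching between low and high, the widest ranges and the narrowest unchanged intervals. Some genes of the fixed set and of the widest ranges were left out of the text. Among them are Timp1, Col1a2, Col3a1, Cygb, Reln, Hand2, Hgf, Cdkn1a, Ccn1, Ccn2, Thbs1, Il11, Nr4a1, Fosb, Lmcd1, Zbp1 and Ifi44l. Outside this rule, the cell type markers and Abcc1, Bgn, Bop1, Cavin2, Cdca8, Dhrs3, Eef2, Eif3b, Fbl, Gclc, Gclm, Gnl3l, Gsto1, Heatr1, Hspa1a, Mad2l1, Man2b1, Myh10, Ncl, Nop2, Nop56, Nop58, Pgd, Polr1a, Pttg1, Rarb, Rrp12, Tcof1, Tgfb1, Tkt, Trim30a and Utp20 were named after their values were seen. The lists of ribosome biogenesis, translation factors and caveolae, and the searches for E-boxes and for each cell cycle motif in the other list, were added after the values were seen.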

Additional observations from a re-analysis of the deposited data

Results flagged for a closer look

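Among 214 genes named, 6 (2.8%) had one quiescent array set apart from the other 4 by more than Dixon's 95% limit, against 523 of all 7823 tested genes (6.7%), and chance gives about 1 in 20. Quiescent replicate 3 was low for the chaperone genes Hspa1b (9.34) and Bag3 (7.28). Quiescent replicate 4 stood apart for Col14a1 (9.10), Heatr1 (8.20) and Myh10 (6.95). Quiescent replicate 1 was low for Tslp (5.93). The difference between culture and quiescent cells was called for each of these 6 genes in every alternative that tested it, leaving out the array concerned included.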

How the results depend on the processing

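The fit was repeated under 21 alternatives. Of the 3291 genes called, 2280 to 3275 kept their call in the alternatives that tested all of them. The total called ran from 2451 (genes reaching log2 7) to 4283 (array weights, whose estimation stopped before it converged), and from 2580 to 3289 when one array was left out. Of all calls 42.4% to 48.8% were higher in culture, against 44.1%. Genes called and at least 2-fold numbered 853 where genes had to reach log2 7, against 1323. Of 200 genes named and called, 180 were called the same way in every alternative that tested them, and Dcn alone reversed, to -0.15 with the mean of its probe sets; the cause was not tested. With unique probe sets 4 of all calls reversed, and in each of the other alternatives 0 did. Same-numbered quiescent and culture arrays deviated with correlations of -0.22, -0.22 and 0.28, and differently numbered ones with -0.36 to 0.42. With so few arrays these values cannot decide whether the numbers pair the samples. A fit with the replicate number as a block called 2654 genes, and a fit of the culture and quiescent arrays alone called 2816. Floored at log2 4, increases from background shrank but kept their call for genes such as Col4a5 (3.57 from 6.40), Pdgfd (3.20 from 5.03) and Cdk1 (2.21 from 3.48), and the mean of probe sets gave smaller values for Anln (1.69 from 3.23), Fbln5 (2.0 from 3.58) and Sgce (0.69 from 1.70). Of the Anln probe sets, 1 reached log2 5 on at least 2 arrays. Signals near log2 2 lie at background, which limits genes such as the mitotic list.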
